A study of Mus musculus with 12 samples.

Results

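The Notch ligand Jag1, the Notch target Nrarp and the other Notch genes measured beside them were followed through cultured mouse bone marrow stroma of 3 genotypes. Members were taken as every probe set whose single platform symbol was Jag1, Nrarp, Notch1, Notch3, Notch4, Jag2, Dll1, Dll4, Hes1, Hey1, Hey2 or Heyl. This gave 7 probe sets, of 3109 tested, for 5 of the 12 genes. Jag1 and Notch3 each had 2 probe sets, and Nrarp, Notch4 and Hes1 each had 1. The other 7 genes (Notch1, Jag2, Dll1, Dll4, Hey1, Hey2 and Heyl) had no such probe set and are not analysed here. The cultures came from C57BL/6 mice aged 3 to 4 months that were wild type, Crebbp+/- (1 inactive copy of Crebbp) or Ep300+/- (1 inactive copy of Ep300), with 4 arrays per genotype, 12 in all. In all groups the marrow grew for 2 weeks in M5300 medium into an adherent layer, which was irradiated with 1500 cGy and given new medium before RNA extraction. The labels call the arrays of a genotype biological replicates but do not say which allele was inactivated or whether animals were pooled, so the p-values measure the spread between these cultures. Values are the deposited log2 GCRMA levels of a biotin-labelled Affymetrix array, which are relative to each probe set and are not compared between probe sets or genes.

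Notch signalling passes between touching cells. A membrane ligand such as Jag1 binds a Notch receptor on a neighbour, the receptor is cut by an ADAM protease and then by gamma-secretase, and the freed intracellular domain joins the DNA-binding protein Rbpj and a Mastermind coactivator on target genes. That complex recruits the acetyltransferases encoded by Crebbp and Ep300. Its targets include the Hes and Hey repressors and Nrarp, a small ankyrin repeat protein that limits the pathway by destabilising the intracellular domain. In bone marrow, Jag1 is made by endothelial and other stromal cells and is known as a ligand presented to blood-forming cells. Notch4 is known mainly from endothelium, and Notch3 from pericytes and vascular smooth muscle.

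The sequences before the start sites of the member genes are shown because the proteins of the 2 inactivated genes act at promoters and enhancers. The RefSeq promoter table of build GRCm38.p6 held 4 of the 5 genes with a measured probe set, without Hes1. The 250 bases before each start are printed 5′ to 3′ in the direction of the gene, with capitals marking a match to one of the motifs searched. Jag1 lies on the minus strand (chr2:137116521-137116770), Nrarp on the plus strand (chr2:25180508-25180757), Notch3 on the minus strand (chr17:32166891-32167140) and Notch4 on the plus strand (chr17:34564045-34564294).
Jag1: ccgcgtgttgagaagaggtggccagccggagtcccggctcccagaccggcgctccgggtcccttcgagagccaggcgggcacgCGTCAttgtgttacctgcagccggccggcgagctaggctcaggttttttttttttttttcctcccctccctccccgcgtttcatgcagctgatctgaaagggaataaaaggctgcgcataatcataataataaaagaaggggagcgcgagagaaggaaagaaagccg
Nrarp: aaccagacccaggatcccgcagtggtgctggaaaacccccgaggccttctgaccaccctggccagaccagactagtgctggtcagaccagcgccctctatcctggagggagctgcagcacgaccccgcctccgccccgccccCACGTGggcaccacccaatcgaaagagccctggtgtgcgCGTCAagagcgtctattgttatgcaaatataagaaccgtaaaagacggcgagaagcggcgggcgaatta
Notch3: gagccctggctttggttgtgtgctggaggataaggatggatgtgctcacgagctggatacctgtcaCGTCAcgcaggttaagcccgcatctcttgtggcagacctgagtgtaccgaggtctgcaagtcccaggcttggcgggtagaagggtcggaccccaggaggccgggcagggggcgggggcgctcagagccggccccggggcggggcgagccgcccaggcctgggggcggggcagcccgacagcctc
Notch4: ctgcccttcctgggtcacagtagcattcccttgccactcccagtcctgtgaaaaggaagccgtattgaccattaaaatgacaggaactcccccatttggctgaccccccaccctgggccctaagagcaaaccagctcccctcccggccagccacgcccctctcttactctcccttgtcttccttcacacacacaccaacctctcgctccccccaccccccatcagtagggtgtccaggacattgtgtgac
All motifs were searched on both strands, and no match overlapped another. The Rbpj core searched was TGGGAA. The cAMP response element half-site, known to be bound by the Creb family that recruits the Crebbp protein, was TGACG, which reads CGTCA on the other strand. The E-box was CACGTG, which reads the same on both strands. The CGTCA form was found once each before Jag1 (167 to 163 bases before the start), Nrarp (69 to 65 bases) and Notch3 (184 to 180 bases). The half-site was present in 17.8% of the 32851 promoters of the same length. CACGTG was found once, before Nrarp (108 to 103 bases), and in 6.02% of all promoters. The Rbpj core was in 21.6% of all promoters and did not occur in these 4 windows, and Notch4 matched none of the 3 motifs. GC content was 57.2% for Jag1, 61.2% for Nrarp, 68.8% for Notch3 and 58.4% for Notch4, against a median of 52.4% over all promoters. A match is a description of letters and not a binding site.

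Several facts of the arrays bear on every value below. Array medians ran from 7.98 to 8.43, and the median log2 difference of Crebbp+/- against wild type over all probe sets was 0.24, so differences are to be read against that shift. Crebbp itself read 7.67 to 7.88 on the Crebbp+/- arrays and 8.45 to 8.73 on the other 8 arrays, and Ep300 is not analysed here. The Y-linked gene Eif2s3y read 2.73 and 2.69 on Crebbp+/- arrays 1 and 3 and 8.41 to 10.84 on the other 10, so arrays with a Y-linked signal were not spread evenly over the genotypes. Reticular stroma markers (7 of 9 measured) averaged 9.58 to 12.01 over the arrays, without Pdgfra and Nt5e. Macrophage markers (5 of 15 measured) averaged 11.73 to 12.44 on the Crebbp+/- arrays, 11.56 to 11.72 on the wild-type arrays and 11.65 to 12.51 on the Ep300+/- arrays. The lowest Crebbp+/- array was barely above the highest wild-type array (11.735 against 11.725), and 3 of the 5 genes had positive differences from wild type. Adipocyte markers (7 of 9 measured) averaged 9.92 to 11.78, with the genotypes overlapping. Osteoblast markers (4 of 10 measured) averaged 7.48 to 8.15 on the Crebbp+/- arrays and 8.87 to 9.14 on the wild-type arrays. The 1 lymphoid marker measured of 10, the immunoglobulin gene Igkv8-30, read 5.34 to 8.36 in Crebbp+/-, 4.01 to 4.60 in wild type and 3.58 to 4.88 in Ep300+/-. It was called higher in Crebbp+/- than in wild type by 2.69. Every probe set of the table reaches the log2 of 100 on at least 3 arrays, and Igkv8-30 did so on Crebbp+/- arrays 2, 3 and 4 alone. It is thus in the table through the group in which it is high, and its call carries no support. The part of these other cell types in the Notch values was not tested.

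Endothelial markers moved with the Crebbp+/- genotype. Of 21 listed genes 17 were measured, and their mean log2 level was 8.42, 7.21, 7.28 and 7.31 on wild-type arrays 1 to 4, 9.80, 9.52, 9.79 and 7.90 on the Crebbp+/- arrays, and 7.06, 7.34, 7.60 and 6.70 on the Ep300+/- arrays. Crebbp+/- arrays 1, 2 and 3 stood above all others, and Crebbp+/- array 4 lay below wild-type array 1 and above the other 3 wild-type arrays. Summed on the linear scale, the same genes ran from 12357 to 14424 in wild type, 11299 to 23075 in Crebbp+/- and 9741 to 12498 in Ep300+/-. That sum leans on Stab1, the highest of these genes on every wild-type and Ep300+/- array. Stab1 read 12.91 to 13.14 in wild type, 11.73 to 12.03 in Crebbp+/- and 12.34 to 13.16 in Ep300+/-. The sum without Stab1 was not computed. Of the 17 genes, 8 were higher and 1 (Stab1, also made by macrophages) was lower in Crebbp+/- than in wild type by limma at an adjusted p under 0.05. Over all probe sets 6.18% were called and 5.02% were called higher. Kdr, Icam2 and Erg reached the log2 of 100 on Crebbp+/- arrays 1, 2 and 3 alone, so they are in the table through the group in which they are high. A call of these genes carries no support, and they are part of the marker mean used below. The defining markers Pecam1 and Cdh5 were well above the lowest levels of the table on every array, at 8.11 to 11.51 and 7.59 to 10.82. Other markers of the list were not. Kdr, Icam2 and Erg were below the log2 of 100 on every wild-type and Ep300+/- array. Tie1, Cldn5 and Sox18 were below it on all of those arrays except wild-type array 1. Pericyte and smooth muscle markers (5 of 12 measured) averaged 8.69 to 9.21 in Crebbp+/-, 7.17 to 8.24 in wild type and 7.13 to 8.10 in Ep300+/-. In that mean every Crebbp+/- array was above every other array. Of the 5 genes, 4 had positive differences from wild type and 3 were called higher by limma, beside 5.02% of all probe sets. The other, Cnn1, read 7.23, 7.18, 6.82 and 8.84 in Crebbp+/- and 7.73, 8.08, 6.45 and 8.33 in wild type. The part of pericyte markers in the Notch3 values was not tested.

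**Figure D1:**
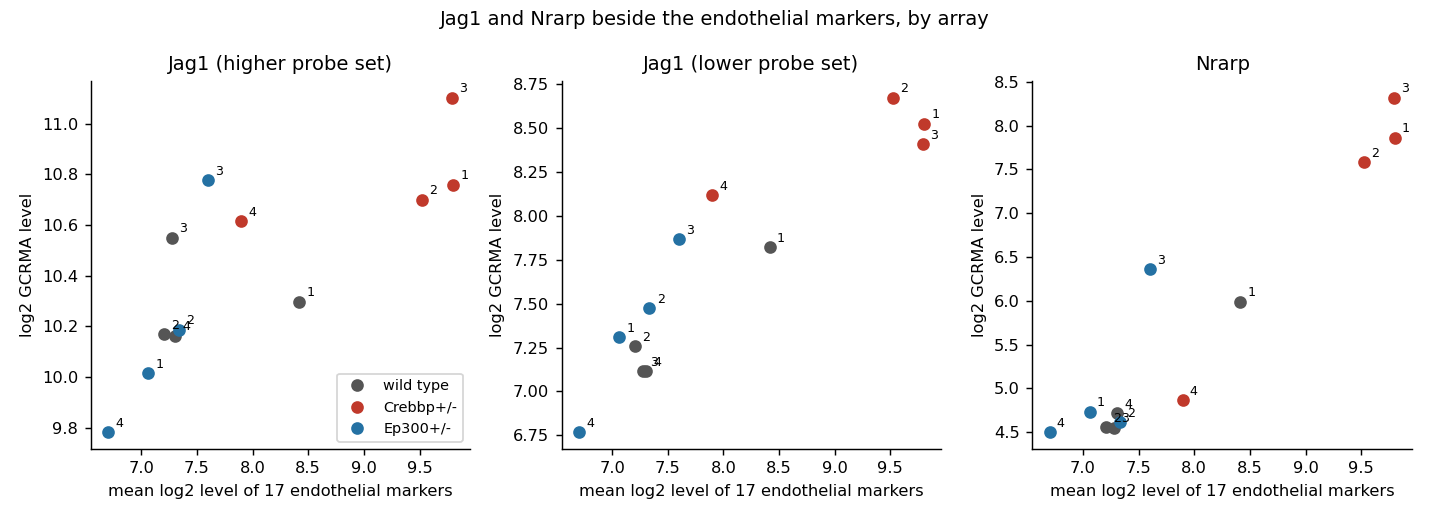
The mean log2 level of the 17 measured endothelial markers (horizontal axis) is plotted against the log2 level of Jag1 and Nrarp (vertical axis), with a point per array coloured by genotype. Crebbp+/- arrays 1, 2 and 3 sit at 9.52 to 9.80, to the right of the other 9 arrays.

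Jag1 was higher in Crebbp+/- stroma than in either other genotype on 1 of its 2 probe sets by limma, and on both probe sets every Crebbp+/- array lay above every wild-type array. In bulk RNA, more cells of a type that makes a transcript and more of it per cell cannot be told apart. The lower Jag1 probe set (1421106_at) read 7.82, 7.26, 7.11 and 7.12 in wild type, 8.52, 8.67, 8.41 and 8.12 in Crebbp+/-, and 7.31, 7.47, 7.86 and 6.77 in Ep300+/-. The Crebbp+/- arrays were all above all 8 others, and the wild-type and Ep300+/- arrays overlapped. Against wild type the means were 8.43 ± 0.24 and 7.33 ± 0.34 (SD, n = 4), a log2 difference of 1.10 (SE 0.28, 95% interval 0.49 to 1.72, 2.15-fold). The adjusted p was 0.0383 by limma and the exact permutation p 0.0286, the smallest that 4 against 4 arrays allow. Over all probe sets, 6.18% were called in this comparison, 5.02% were called higher, and 10.4% had every Crebbp+/- array above every wild-type array.

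The higher Jag1 probe set (1434070_at) moved less. It read 10.30, 10.17, 10.55 and 10.16 in wild type, 10.76, 10.70, 11.10 and 10.62 in Crebbp+/-, and 10.02, 10.19, 10.78 and 9.78 in Ep300+/-. The lowest Crebbp+/- array was just above the highest wild-type array, while Ep300+/- array 3 reached into the Crebbp+/- range. The log2 difference from wild type was 0.50 (SE 0.26, 95% interval -0.060 to 1.06), with an adjusted p of 0.229 by limma and an exact permutation p of 0.0286. It was 0.22 (adjusted p 0.636) after quantile normalization, 0.30 (adjusted p 0.457) after centring each array on its median and 0.14 (adjusted p 0.984) with the endothelial marker mean as a covariate. The 2 Jag1 probe sets followed each other over the 12 arrays with a Pearson r of 0.818, and of 0.591 after subtraction of the genotype means.

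The Jag1 call, like the number of calls over all probe sets, depended on single arrays and on what was held constant. It was lost (adjusted p by limma from 0.0599 to 0.132) when wild-type array 2, 3 or 4, Crebbp+/- array 1, 2 or 3, or Ep300+/- array 1 or 2 was left out, with log2 differences of 1.02 to 1.27 over the 12 fits that each leave out 1 array. Over all probe sets those 8 losing fits called 5 to 133, against 192 in the full fit. Quantile normalization of the arrays gave 0.91 (adjusted p 0.0504). Without Crebbp+/- arrays 1 and 3, those of low Eif2s3y, the difference was 1.07 with an adjusted p of 0.266, and 4 of all probe sets were called. With the endothelial marker mean as a covariate it was 0.41, with an adjusted p of 0.890, and 0 of all probe sets were called by limma (246 at an unadjusted p under 0.05). The part of sex in the difference was not tested further.

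**Figure D2:**
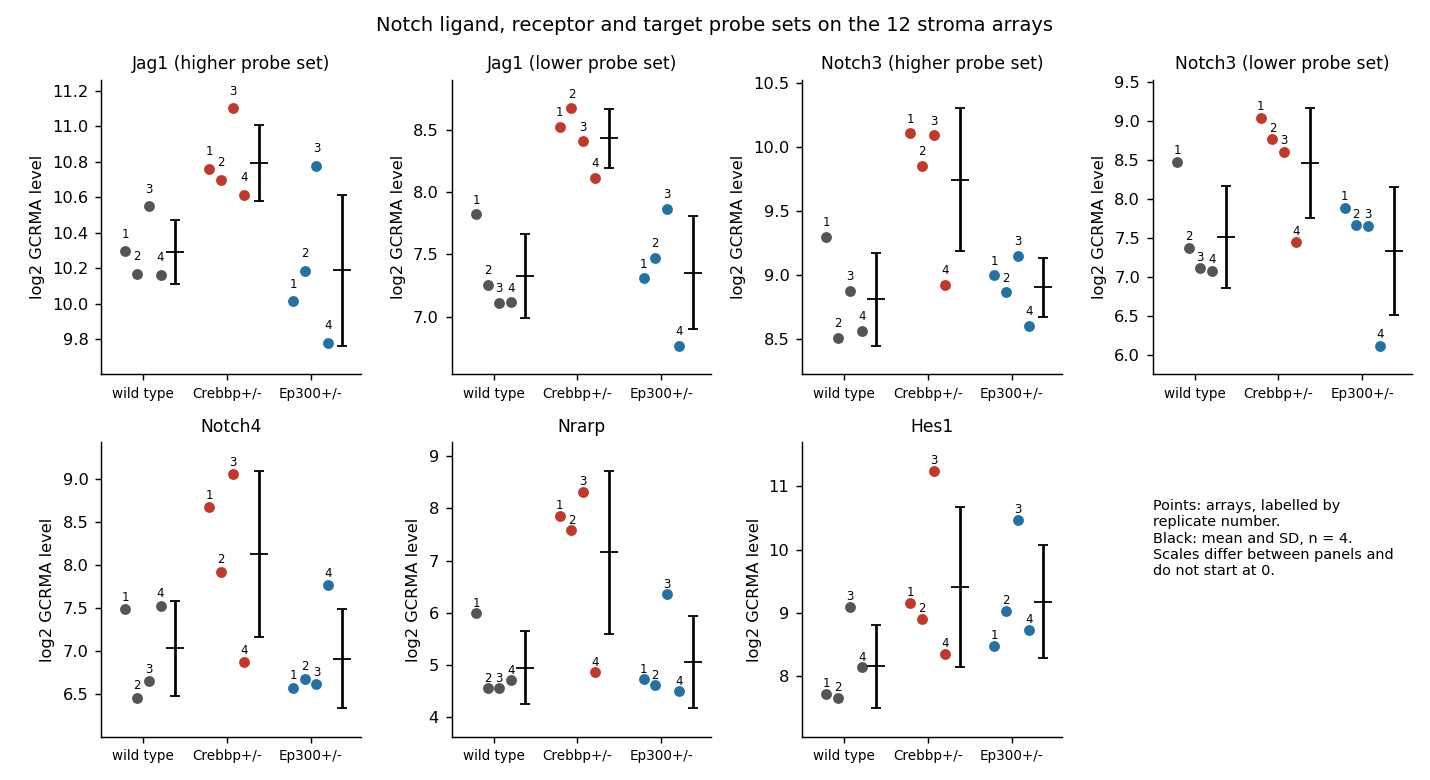
Deposited log2 GCRMA levels (vertical axis) of the 7 member probe sets, with a point per array, 4 per genotype, and the mean with SD. The lower Jag1 probe set is at 8.12 to 8.67 in Crebbp+/-, above all other arrays, and Nrarp is split within Crebbp+/- between 3 arrays at 7.58 to 8.32 and 1 at 4.86.

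The receptors measured were Notch3 and Notch4, and neither passed the limma threshold in the fit without a replicate term. The higher Notch3 probe set (1421965_s_at) read 9.30, 8.50, 8.87 and 8.56 in wild type, 10.11, 9.85, 10.09 and 8.92 in Crebbp+/-, and 9.0, 8.86, 9.15 and 8.60 in Ep300+/-. Crebbp+/- arrays 1, 2 and 3 were above all others, and array 4 lay within both other groups. The log2 difference from wild type was 0.93 (SE 0.31, 95% interval 0.27 to 1.60, 1.91-fold), with an adjusted p of 0.0879 by limma and an exact permutation p of 0.0571. The lower Notch3 probe set (1421964_at) read 8.47, 7.37, 7.11 and 7.08 in wild type, 9.03, 8.76, 8.60 and 7.44 in Crebbp+/-, and 7.89, 7.66, 7.65 and 6.12 in Ep300+/-. The same 3 Crebbp+/- arrays were the highest. Its difference was 0.95 (SE 0.47, 95% interval -0.074 to 1.98, adjusted p 0.214 by limma), and with replicate number added as a blocking term the adjusted p of the 2 probe sets was 0.0162 and 0.0307.

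Notch4 (1449146_at) read 7.48, 6.46, 6.65 and 7.53 in wild type, 8.67, 7.92, 9.05 and 6.87 in Crebbp+/-, and 6.57, 6.68, 6.61 and 7.77 in Ep300+/-. Crebbp+/- arrays 1, 2 and 3 were above every other array, and Crebbp+/- array 4 was lower than wild-type arrays 1 and 4. The log2 difference from wild type was 1.10 (SE 0.47, 95% interval 0.079 to 2.11), with an adjusted p of 0.160 by limma, 0.127 with the replicate block, and an exact permutation p of 0.114. Without Crebbp+/- array 4, the lowest of its group for both, the higher Notch3 probe set and Notch4 passed. The differences were 1.21 (adjusted p 0.0156 by limma) and 1.52 (adjusted p 0.0371), and that fit called 383 of all probe sets, against 192 in the full fit. Without Crebbp+/- arrays 1 and 3 the same differences were 0.58 (adjusted p 0.458) and 0.36 (adjusted p 0.674). With Eif2s3y as a covariate they were 0.56 (adjusted p 0.563) and 0.12 (adjusted p 0.906), and with the endothelial marker mean Notch4 differed by 0.025 (adjusted p 0.998). The 2 Notch3 probe sets turned with that covariate to -0.071 and -0.62.

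Nrarp had the widest difference of the members and was uneven among the Crebbp+/- arrays. Its probe set (1417985_at) read 5.99, 4.55, 4.55 and 4.72 in wild type, 7.86, 7.58, 8.32 and 4.86 in Crebbp+/-, and 4.73, 4.61, 6.36 and 4.50 in Ep300+/-. Crebbp+/- arrays 1, 2 and 3 stood above the other 9 arrays, and Crebbp+/- array 4 lay among the wild-type values. Nrarp reached the log2 of 100, the level that every probe set of the table reaches on at least 3 arrays, on those 3 arrays alone, so it is in the table through the group in which it is high. Its p-values, in whichever fit, are therefore given as a description and carry no support. The means were 7.16 ± 1.56 in Crebbp+/- and 4.95 ± 0.69 in wild type (SD, n = 4), a log2 difference of 2.20 (SE 0.69, 95% interval 0.72 to 3.69). The adjusted p was 0.0748 by limma and the exact permutation p 0.0571, so the difference did not pass. It was 2.97 (adjusted p 0.00416) without Crebbp+/- array 4, the 1 low array of its group, and 2.20 (adjusted p 0.0240) with the replicate block. It was 1.27 (adjusted p 0.430) without Crebbp+/- arrays 1 and 3 and 1.10 (adjusted p 0.584) with Eif2s3y as a covariate. With the endothelial marker mean as a covariate it turned to -0.48 (adjusted p 0.897).

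Hes1 (1418102_at), a repressor that is also induced by other signals, followed another order than Nrarp. It read 7.73, 7.66, 9.09 and 8.14 in wild type, 9.16, 8.91, 11.24 and 8.36 in Crebbp+/-, and 8.48, 9.03, 10.47 and 8.73 in Ep300+/-. Array 3 was the highest of each genotype, and all 3 groups overlapped. The higher Jag1 probe set was also highest on array 3 of each genotype, at 10.55, 11.10 and 10.78. The log2 difference from wild type was 1.26 in Crebbp+/- (SE 0.61, 95% interval -0.057 to 2.58, adjusted p 0.201 by limma) and 1.02 in Ep300+/- (95% interval -0.30 to 2.34, adjusted p 0.965). With the replicate block the adjusted p of the Crebbp+/- difference was 0.0162. The inflammatory cytokine gene Tnf was highest on the same arrays, at 14.38 on Crebbp+/- array 3 and 14.36 on Ep300+/- array 3, with 12.29 on Ep300+/- array 2 and 7.76 to 9.80 on the other 9 arrays. The part of that in Hes1 and Jag1 was not tested.

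By count, 1 of the 7 member probe sets was called in Crebbp+/- against wild type, beside 6.18% of all probe sets, and all 7 had positive differences with a median of 1.10. Over all probe sets the median was 0.24 and 62.4% were positive. Every Crebbp+/- array was above every wild-type array for 2 of the 7 members, both of the same gene, Jag1, beside 10.4% of all probe sets. Same-numbered arrays of these 2 genotypes deviated together, and with that blocking term 5 of the 7 members (lower Jag1, Nrarp, both Notch3 and Hes1) were called higher, while 26.1% of all probe sets were called and 17.5% were called higher. Leaving out Nrarp, which entered the table through Crebbp+/-, the counts were 1 of 6, and 4 of 6 with the blocking term, and the median difference was 1.02.

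**Figure D3:**
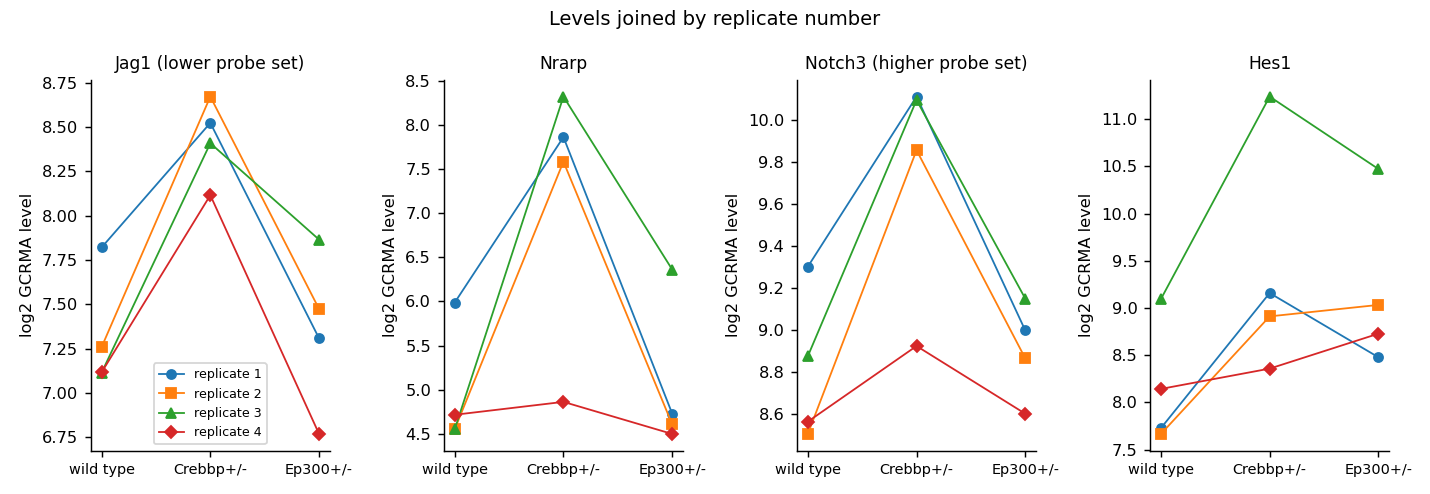
Levels on the log2 scale (vertical axis) of the lower Jag1, Nrarp, higher Notch3 and Hes1 probe sets, with arrays of the same replicate number joined across the genotypes. Hes1 is highest on array 3 of each genotype, at 9.09 in wild type, 11.24 in Crebbp+/- and 10.47 in Ep300+/-.

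Ep300+/- stroma gave no call. By limma 0 of the 7 members and 0 of 3109 probe sets (0%) were called against wild type, and at an unadjusted p under 0.05 the numbers were 0 and 126. The log2 differences were -0.10 (95% interval -0.66 to 0.46) for the higher and 0.027 (-0.59 to 0.64) for the lower Jag1 probe set. Nrarp differed by 0.098 (-1.39 to 1.58), which leaves room for a change of more than 1 log2 unit either way. Notch3 differed by 0.092 (-0.58 to 0.76) and -0.18 (-1.20 to 0.85) and Notch4 by -0.12 (-1.14 to 0.90). The signs of these small differences depend on the processing: quantile normalization turned the lower Jag1 and the higher Notch3 probe sets to -0.052 and -0.0013. Of the members 4 of 7 were positive, with a median of 0.027 beside 0.049 over all probe sets.

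The 2 heterozygous genotypes were also compared with each other, with the Crebbp+/- arrays shared with the comparison above. On the lower Jag1 probe set, Crebbp+/- was higher by 1.08 (SE 0.28, 95% interval 0.46 to 1.69, 2.11-fold), with an adjusted p of 0.0406 by limma and an exact permutation p of 0.0286. It was the 1 member called of 7, beside 6.4% of all probe sets called and 4.89% called higher, and the 1 member without overlap, beside 9.13% of all. That call was lost without wild-type array 2, 3 or 4, Crebbp+/- array 1, 2 or 3, or Ep300+/- array 1, 2 or 4 (adjusted p 0.0505 to 0.136), with differences of 0.88 to 1.25 over the 12 fits. The 9 losing fits called 2 to 182 of all probe sets, against 199 in the full fit. The higher Jag1 probe set differed by 0.60 (SE 0.26, adjusted p 0.168 by limma, 0.0346 with the replicate block). Nrarp, which no Ep300+/- array brought into the table, differed by 2.10 (SE 0.69, adjusted p 0.0819 by limma, 0.0268 with the block), and without Crebbp+/- array 4 by 2.87 (adjusted p 0.00453). Without Ep300+/- array 3, in which Nrarp read 6.36, it differed by 2.54 (adjusted p 0.0438). As against wild type, these p-values of Nrarp carry no support. Notch3 differed by 0.84 and 1.13 (adjusted p 0.115 and 0.160 by limma, 0.0216 and 0.0157 with the block), Notch4 by 1.22 (adjusted p 0.130) and Hes1 by 0.24 (95% interval -1.08 to 1.56, adjusted p 0.877). With the block 5 of 7 members were called, both Jag1, Nrarp and both Notch3, beside 24.4% of all probe sets and 19.1% higher, and 4 of 6 without Nrarp.

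**Figure D4:**
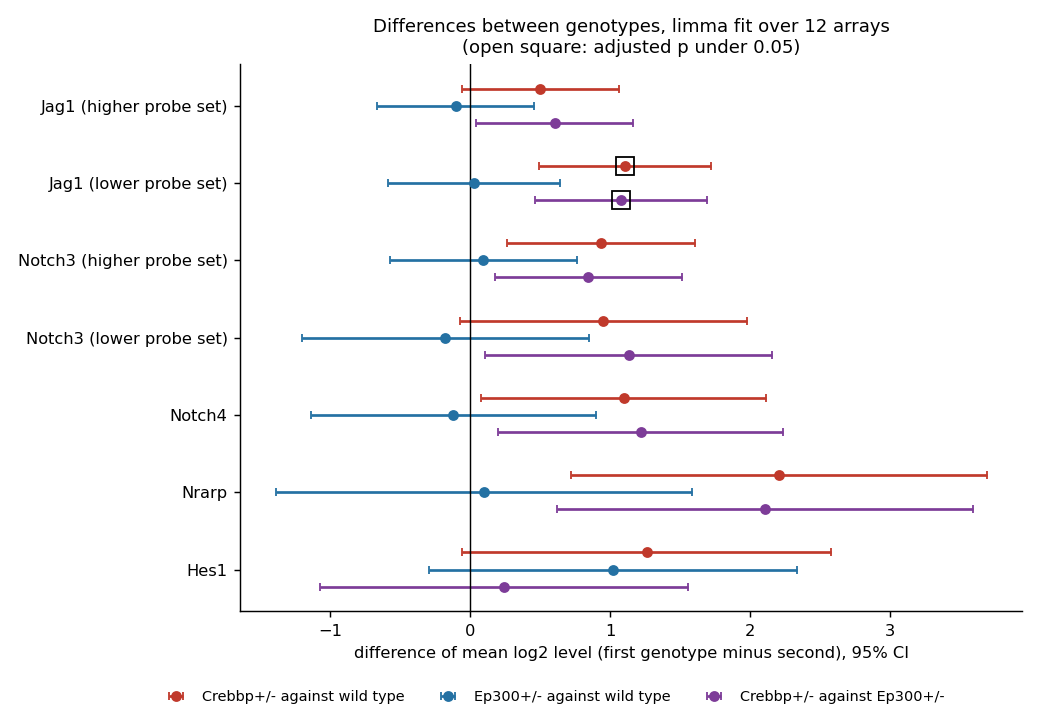
Log2 differences with 95% intervals (limma) of the 7 member probe sets in the 3 comparisons, with an open square around differences at an adjusted p under 0.05. The lower Jag1 probe set is at 1.10 and 1.08 in the comparisons of Crebbp+/- with wild type and with Ep300+/-, and the Ep300+/- differences from wild type of Jag1, Nrarp, Notch3 and Notch4 lie between -0.18 and 0.098.

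The rest of the pathway was thinly represented. Of 63 other listed genes 11 were measured, by 16 probe sets: 1 of 12 of the nuclear complex (Snw1), 4 of 9 proteases and gamma-secretase subunits, 3 of 18 further targets and 3 of 14 ubiquitin and endocytosis genes. None of the 5 glycosyltransferases, the 4 other ligands or the other receptor had a probe set. Against wild type, 0 of the 16 were called in Crebbp+/- by limma, with 4 at an unadjusted p under 0.05 (25%, beside 26.7% of all probe sets) and 4 called with the replicate block (25%, beside 26.1% of all). These shares are near the background. Of the 16 differences 13 were positive, with a median of 0.53, and 2 (lower Dtx3l and Cdkn1a) lay wholly above wild type, beside 10.4% of all probe sets. Without Neurl3, which entered the table through the heterozygotes, 12 of 15 were positive, with a median of 0.44. Over all probe sets 62.4% were positive, with a median of 0.24. At an unadjusted p under 0.05 there were then 3 of 15 (20%).

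Among the proteases, the 2 probe sets of Adam10, which cuts the receptor after ligand binding, differed by 0.44 and 1.01 (adjusted p 0.302 and 0.195 by limma), and Adam17 by 0.71 (adjusted p 0.188). The lower Adam10 probe set (1450104_at) read 7.47, 8.05, 6.32 and 6.77 in wild type, 8.20, 9.34, 7.19 and 7.93 in Crebbp+/-, and 7.30, 7.31, 6.59 and 6.25 in Ep300+/-. Each Crebbp+/- array was above the wild-type array of the same number, while the groups overlapped, and with the block the adjusted p was 0.0201.

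Dtx3l, a Deltex family ubiquitin ligase that is also induced by interferon, differed by 1.06 (SE 0.29, adjusted p 0.0504 by limma) on its lower probe set and 1.30 (SE 0.46, adjusted p 0.102) on its higher one. The lower probe set (1435208_at) read 8.01, 7.74, 7.63 and 7.21 in wild type, 8.94, 9.02, 8.39 and 8.47 in Crebbp+/-, and 7.78, 8.11, 8.31 and 7.30 in Ep300+/-. All Crebbp+/- arrays were above all other arrays, with the adjusted p just outside the threshold, and 0.0125 with the block. Snw1, a splicing factor and coregulator of the Notch complex, differed by 0.76 (adjusted p 0.111 by limma, 0.0184 with the block). It read 8.69, 8.75, 8.39 and 8.27 in wild type and 9.48, 9.58, 8.73 and 9.37 in Crebbp+/-, and Crebbp+/- array 3 lay just below wild-type array 2.

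Neurl3, a Neuralized family ubiquitin ligase, reached the log2 of 100 on 1 Crebbp+/-, 2 Ep300+/- and 0 wild-type arrays, the 3 that the table's filter asks for. It is thus in the table through the groups in which it is high, and its differences from wild type are given as a description. It read 4.85, 4.42, 6.44 and 4.13 in wild type, 6.60, 5.21, 7.71 and 6.11 in Crebbp+/-, and 5.99, 6.74, 6.53 and 7.45 in Ep300+/-. Wild-type array 3 overlapped both other groups. The differences were 1.45 (SE 0.58, adjusted p 0.137 by limma) in Crebbp+/- and 1.72 (SE 0.58, adjusted p 0.841) in Ep300+/-, and the 2 values share the wild-type arrays. In Ep300+/- against wild type 0 of the 16 were called, as were 0% of all probe sets. At an unadjusted p under 0.05 there was 1 (Neurl3, 6.25%), beside 4.05% of all. Between the heterozygotes 0 of 16 were called, beside 6.4% of all. With the block 5 were called (both Adam10, both Dtx3l and Snw1), or 31.25%, beside 24.4% of all.

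**Figure D5:**
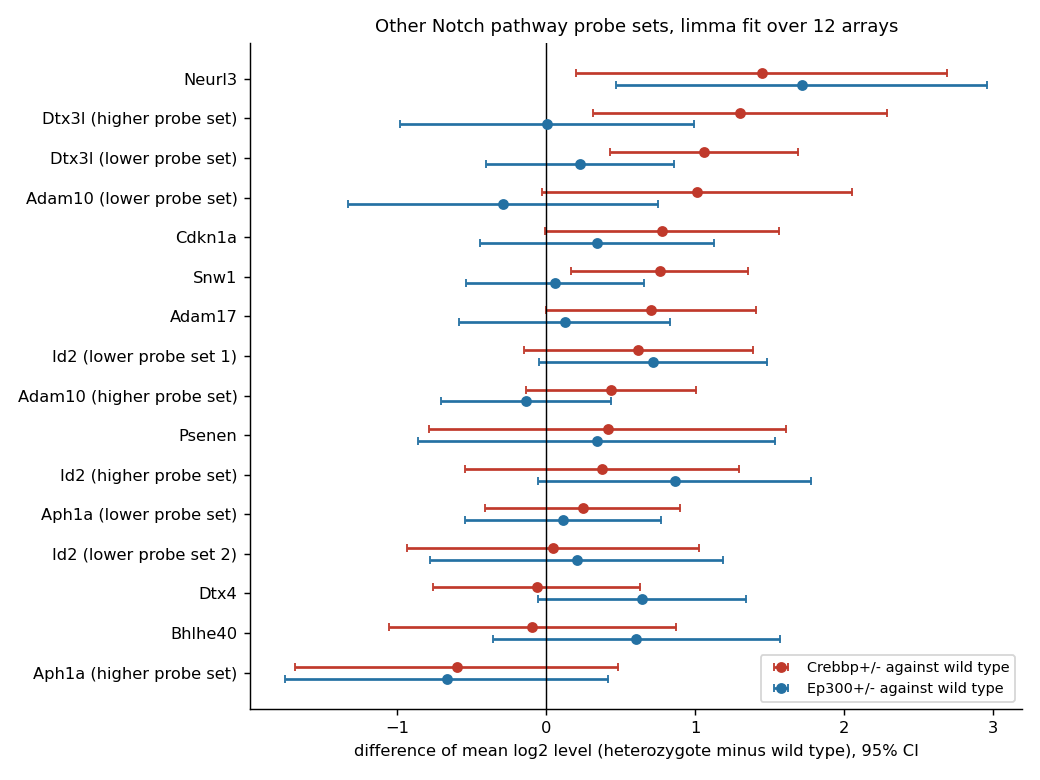
Log2 differences of the 16 probe sets of other pathway genes, with 95% intervals (limma), for Crebbp+/- and Ep300+/- against wild type, ordered by the Crebbp+/- difference. Of the Crebbp+/- differences from wild type 13 are positive, with a median of 0.53.

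Jag1 and Nrarp were also set against the endothelial marker mean. The 12 arrays fall into separate clusters on that mean, 9 from 6.70 to 8.42 and 3 (Crebbp+/- 1, 2 and 3) from 9.52 to 9.80, so 5 relations were computed over the 9 arrays alone. The lower Jag1 probe set followed the mean with a Pearson r of 0.83 (exact permutation p 0.00415, adjusted p 0.0208) and a Spearman rho of 0.80 (exact p 0.0138, adjusted 0.0319), and r was 0.885 without wild-type array 1 and Ep300+/- array 4, the 2 farthest from the median. It did not pass without Ep300+/- array 4 alone (r 0.753, exact adjusted p 0.105), after quantile normalization (r 0.705, exact adjusted p 0.174) or after centring each array on its median (r 0.779, exact adjusted p 0.0768). The higher Jag1 probe set gave r 0.581 (exact p 0.0986, adjusted 0.123; rho 0.767, exact p 0.0214, adjusted 0.0319) and 0.767 without those 2 arrays. Nrarp gave r 0.672 (exact p 0.0425, adjusted 0.106; rho 0.75, exact p 0.0255, adjusted 0.0319) and 0.442 without them. The 9 arrays mix 3 genotypes and share array-wide level, so these values describe a common order of the arrays. Nrarp read 4.50 to 6.36 on these 9 arrays, below the log2 of 100 on each, so its p-values carry no support.

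Jag1 with Nrarp over the same 9 arrays gave r 0.560 (exact p 0.128, adjusted 0.128) and rho 0.567 (exact p 0.121) for the higher probe set and r 0.645 (exact p 0.0704, adjusted 0.117) and rho 0.867 (exact p 0.00451, adjusted 0.0225) for the lower. Without Ep300+/- array 3 and wild-type array 1 these r were 0.461 and 0.797. Since Nrarp was below the log2 of 100 on all 9 arrays, the p-values with Jag1 carry no support either. As a description over all 12 arrays with the genotype means subtracted, r with the endothelial mean was 0.475 and 0.764 for the Jag1 probe sets and 0.942 for Nrarp.

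The genes most like each in level over the 12 arrays were listed as a description, among 1973 other genes. For the higher Jag1 probe set they were Sp100, Epsti1, Rsad2, Hmcn1, Mndal, Plcb4, Gbp3 and Tcim, with Pearson r of 0.913 to 0.958. With genotype means subtracted they were Rsad2, Btg2, Ralgds and Gm6377, with r of 0.940 to 0.952. For Nrarp they were Ldb2, Rapgef5, Cyp4b1, Gimap6, Ms4a8a, Rnf144a, Notch3 and Itga1, with r of 0.958 to 0.978. With genotype means subtracted they were Gimap6, Ldb2, Cyp4b1 and the endothelial marker Cdh5, with r of 0.963 to 0.969. Jag1 and Nrarp had r of 0.795 with each other. Nrarp was at rank 146 of the genes most like Jag1, and Jag1 at rank 197 of those most like Nrarp. Hes1 had r of 0.696 with Jag1 (rank 290). With genotype means subtracted, r with Jag1 was 0.593 for Nrarp (rank 409) and 0.849 for Hes1 (rank 110). These arrays share genotype, culture and array-wide level, and the r values carry no p.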

How the data were processed

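RNA of 12 cultures, 4 per genotype by the labels, was measured on Affymetrix arrays. The values are log2 levels that the authors deposited after GCRMA, a method that adjusts for background by probe sequence, scales arrays to each other and combines the probes of a set, per the submitters' processing notes. Its version is not given in the sources used here. Of 3127 probe sets in the table, 18 controls were left out. Every tested probe set spans an interquartile range of 0.5001 or more and reaches the log2 of 100 on 3 or more arrays, a filter read from the values, so flat or dim genes are not analysed here. Of 3109 probe sets, 2486 had 1 symbol (1974 genes), 176 several and 447 none; all 23 Notch probe sets matched the RefSeq gene table (GRCm38.p6) by gene ID.

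Differences were fitted with limma 3.58.1 in R 4.3.3 (lmFit, eBayes) in a model of 3 genotype means on the 12 arrays, two-sided, with Benjamini-Hochberg adjustment over 3109 probe sets and a threshold of 0.05. The fit was tested on simulated data. Exact two-sided permutation tests over the 70 regroupings of 4 against 4 cannot go below 0.0286. The number of arrays limits the precision. Same-numbered arrays deviated together in Crebbp+/- and wild type (r 0.448 to 0.603) and in the heterozygotes (0.294 to 0.513), so the numbers were taken to pair them from the data, while Ep300+/- and wild type gave 0.0593 to 0.683 and were not. The 0.0593 was that of arrays 3, and the other numbers gave 0.345 to 0.683, so this division is not sharp. The blocking term covered all 12 arrays and so joined Ep300+/- and wild type too. The labels do not say what a number marks. The 5 relations had been planned over 12 arrays. Named genes were all genes of the 2 Notch lists with a probe set, and, for Jag1 and Nrarp, the 8 most alike by Pearson r of levels and 4 by deviations. The members, lists and marker genes were chosen with earlier results of these data known. Alternatives covered normalization, filters, array weights, eBayes settings, covariates and single arrays left out.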

Additional observations from a re-analysis of the deposited data

Results flagged for a closer look

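In the 21 sets of 4 arrays tested (7 member probe sets in 3 genotypes), 4 held an array far from the others of its group, by Dixon's criterion for 4 values. Chance flags about 1 in 20 groups. Nrarp was high on wild-type array 1, at 5.99 with the nearest at 4.72, and on Ep300+/- array 3, at 6.36 with the nearest at 4.73. Ep300+/- array 4 was low for the lower Notch3 probe set, at 6.12 with the nearest at 7.65, and high for Notch4, at 7.77 with the nearest at 6.68. Wild-type array 1 and Ep300+/- array 3 also had the highest endothelial marker mean of their genotype, 8.42 and 7.60, and Ep300+/- array 4 the lowest, 6.70; the part of that in these values was not tested.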

How the results depend on the processing

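Settings were changed one at a time in limma, and adjusted p-values follow in brackets; unless a value or the setting's own construction shows it, the cause was not tested. For Crebbp+/- against wild type, array weights gave 0.53 (0.0310) for the higher Jag1 probe set and 2.81 (0.000517) for Nrarp, and they called 1267 of all probe sets. The lower Jag1 probe set no longer passed after quantile normalization, at 0.91 (0.0504), without array 3 of both heterozygotes, at 1.11 (0.0512), with Eif2s3y as a covariate, at 1.11 (0.307), with the endothelial mean as a covariate, at 0.41 (0.890), or without Crebbp+/- arrays 1 and 3, at 1.07 (0.266), a setting chosen after seeing the data. The replicate block gave 2.20 (0.0240) for Nrarp. The endothelial covariate turned Nrarp to -0.48, Notch3 to -0.071 and -0.62 and Adam17 to -0.057. The higher Jag1 probe set was 0.22 after quantile normalization, 0.30 after centring and 0.14 with the endothelial covariate, and Nrarp was 1.10 with Eif2s3y and 1.27 without Crebbp+/- arrays 1 and 3. Of the 23 Notch probe sets 1 was called; this became 0 with quantile normalization, either covariate or without Crebbp+/- arrays 1 and 3, 2 with eBayes trend and robust settings or without array 3 of both heterozygotes, 15 with array weights and 9 with the replicate block. Over all probe sets limma called 0 with either covariate (388 at an unadjusted p under 0.05 with Eif2s3y, 246 with the endothelial mean) and 4 without Crebbp+/- arrays 1 and 3, so the loss in those fits was not particular to Notch genes. It called 192 after quantile normalization, as in the main fit, and 812 with the replicate block. Quantile normalization moved the median difference of all probe sets from 0.24 to 0.022 and the higher and lower calls from 156 and 36 to 120 and 72, and centring gave 125 and 72.

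For Ep300+/- against wild type the small differences changed sign. The lower Jag1 probe set was -0.052 after quantile normalization, -0.031 after centring and -0.14 without array 3 of both heterozygotes. Nrarp was -0.12 with array weights, -0.34 without those arrays and -0.036 with Eif2s3y. The Notch3 probe sets were -0.0013 after quantile normalization (higher) and 0.22 with array weights and 0.17 with the endothelial covariate (lower), and Notch4 was 0.12 with that covariate. The replicate numbers were not taken to pair these genotypes (r of deviations 0.0593 to 0.683). A replicate block called 0 of the Notch probe sets and 1 of all.

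For Crebbp+/- against Ep300+/-, the higher Jag1 probe set was 0.62 (0.0076) with array weights and 0.60 (0.0346) with the replicate block. The lower one no longer passed in a fit of these 2 genotypes only, at 1.08 (0.112), with Eif2s3y, at 1.09 (0.243), with the endothelial covariate, at 0.23 (0.807), or without Crebbp+/- arrays 1 and 3, at 1.04 (0.223). Nrarp was 2.93 (0.000148) with array weights, 2.10 (0.0268) with the block and -1.17 with the endothelial covariate, which also turned Notch3 to -0.39 and -0.79, Notch4 to -0.091, Hes1 to -1.08 and Adam17 to -0.35. Hes1 was -0.37 with Eif2s3y and -0.54 without Crebbp+/- arrays 1 and 3. The count of 1 called became 0 in the fit of 2 genotypes, with either covariate or without those arrays, 13 with array weights and 10 with the block. Over all probe sets 0 were called with either covariate (479 and 287 at an unadjusted p under 0.05), 51 in the fit of 2 genotypes and 2 without those arrays. Array weights called 1273 of all probe sets and the block 760.

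Leaving out 1 array at a time, the differences from wild type in Crebbp+/- ran from 0.40 to 0.59 and 1.02 to 1.27 for Jag1 and from 1.82 to 2.97 for Nrarp, and the count from 0 to 5. In Ep300+/- they ran from -0.30 to 0.032 and -0.14 to 0.22 for Jag1, -0.34 to 0.44 for Nrarp, -0.0100 to 0.26 and -0.36 to 0.23 for Notch3 and -0.41 to 0.044 for Notch4, and the count stayed at 0. Between heterozygotes they ran from 0.47 to 0.80 and 0.88 to 1.25 for Jag1, 1.72 to 2.87 for Nrarp and -0.37 to 0.67 for Hes1, and the count from 0 to 4. Without Ep300+/- array 3 the higher Jag1 probe set passed (0.0486). Without Crebbp+/- array 4 the higher Notch3 probe set and Notch4 passed, at 1.12 (0.0217) and 1.64 (0.0269). Over all probe sets those fits called 322 and 374, against 199 in the full fit. The single omissions called 5 to 383 of all probe sets in Crebbp+/- against wild type, 0 to 1 in Ep300+/- against wild type and 2 to 374 between heterozygotes. The relations to the endothelial mean ran from r 0.38 to 0.86 and 0.75 to 0.92 for Jag1 and 0.47 to 0.87 for Nrarp, and those of Jag1 to Nrarp from 0.22 to 0.69 and 0.58 to 0.86. That of the lower Jag1 probe set was 0.70 after quantile normalization and 0.78 after centring. A filter at a mean log2 of 6 removed Nrarp and gave no value for it.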
